A study of Mus musculus with 6 samples.

Results

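The epidermal growth factor (EGF) receptor family and its ligands were followed in mouse submandibular salivary gland organoids (mSGOs) between day 5 and day 7 of culture. The members are 10 genes taken by name from the 47643 gene IDs that were counted: the 3 receptor genes *Egfr*, *Erbb2* and *Erbb3* and the 7 ligand genes *Hbegf*, *Areg*, *Ereg*, *Epgn*, *Btc*, *Tgfa* and *Egf*. The names were chosen without a measured value in the rule, but with earlier results of these data known. All 10 had reads and passed the filter on low counts, *Egf* only through its day 5 reads. mSGOs are multicellular structures that grow in Matrigel from dissociated adult gland cells, here from C57BL/6 mice aged 8 to 12 weeks, all of them female according to the methods of the study. The day 5 group and the day 7 group each held 1 library from each of mice 1, 2 and 3. Every library was a non-irradiated, untreated control, and no agent or allele differed between the groups. All cultures were kept in WRY medium, which itself supplies EGF and FGF2 (each at 20 ng/mL) next to insulin (10 µg/mL), dexamethasone, the kinase inhibitor Y27632 and media conditioned by cells that make Wnt3a or R-spondin1. According to the methods, the gland cells first grew as spheres, which were dissociated and replated in the gel, so the day 5 and day 7 organoids come from replated cells and not from intact tissue.

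EGF family ligands are made as membrane-anchored precursors and are released from the cell surface by proteases, mainly ADAM17 and ADAM10. They bind EGFR or ERBB4, while ERBB2 has no known ligand of its own and ERBB3 has a very weak kinase, so that both act by pairing with another receptor. Bound receptors signal through RAS and ERK and through PI3-kinase, and they are switched off by inhibitors such as ERRFI1 and by ubiquitin ligases of the CBL family. In the mouse submandibular gland, EGF is a major product of the granular convoluted tubules, a part of the duct that is far more developed in males. In stratified epithelia, amphiregulin, epiregulin, HB-EGF and TGF-alpha are made by the epithelial cells themselves and act on their neighbours.

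The ligands are tied together by the EGF-like domain that binds the receptor, in which 6 cysteines at fixed distances form the fold. The coding bases from the first to the last of these cysteines are shown for the 6 ligands whose sequence is given, to let the shared spacing be seen before their levels are compared. They were read in frame from the canonical transcripts of GENCODE vM39 (build GRCm39). The cysteine codons are in capitals, and each stretch runs 5′ to 3′ on the coding strand.
Areg: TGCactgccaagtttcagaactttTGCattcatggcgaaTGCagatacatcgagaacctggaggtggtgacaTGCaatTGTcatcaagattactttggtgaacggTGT
Ereg: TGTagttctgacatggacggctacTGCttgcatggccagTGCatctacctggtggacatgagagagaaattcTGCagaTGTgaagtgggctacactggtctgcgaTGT
Epgn: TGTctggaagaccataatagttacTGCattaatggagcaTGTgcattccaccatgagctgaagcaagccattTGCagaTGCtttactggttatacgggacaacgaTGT
Btc: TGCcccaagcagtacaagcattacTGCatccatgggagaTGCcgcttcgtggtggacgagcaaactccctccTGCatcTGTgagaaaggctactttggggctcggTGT
Tgfa: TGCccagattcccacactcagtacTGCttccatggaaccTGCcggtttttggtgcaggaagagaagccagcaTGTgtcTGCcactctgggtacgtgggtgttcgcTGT
Egf: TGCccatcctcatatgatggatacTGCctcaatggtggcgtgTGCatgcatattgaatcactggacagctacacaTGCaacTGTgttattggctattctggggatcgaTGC
Between the cysteines lay 7, 4, 10, 1 and 8 codons in *Areg*, *Ereg*, *Epgn*, *Btc* and *Tgfa*, over 36 codons in all, and also in *Hbegf*, whose bases are not shown. *Egf* alone had 5 codons in the second of these gaps, over 37 codons in all. In every ligand the stretch was split over 2 coding exons, exons 3 and 4 in *Areg*, *Ereg*, *Epgn*, *Btc* and *Tgfa* and exons 20 and 21 in *Egf*. The search itself required the gaps of 7, 1 and 8 codons and allowed only 4 or 5 codons after the gap of 7. The shared spacing is therefore largely set by the search. A stretch that met these requirements was found 1 time in each coding sequence. This held also in *Egf*, whose precursor is far longer than the others (1217 codons, against 152 in *Epgn* and 248 in *Areg*). EGF-like repeats with other spacings were not searched for, so 1 match does not mean that a precursor holds 1 such repeat. The genomic spans, introns included, are chr5:91291473-91292223 for *Areg*, chr5:91236355-91236970 for *Ereg* and chr5:91179011-91180096 for *Epgn* on the plus strand, chr5:91510280-91514056 for *Btc* and chr3:129479971-129484499 for *Egf* on the minus strand, and chr6:86240182-86246942 for *Tgfa* on the plus strand.

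Levels are given in CPM, counts per 1000000 of the TMM-scaled library size. The libraries read the 3′ end of each transcript, so a count stands for a transcript end, and levels of different genes were compared without a correction for length. The 6 libraries held 1918198 to 2837397 counts in genes, and a single count was worth 0.347 to 0.502 CPM. Counting error alone is therefore large for *Egf* and small for *Hbegf*, *Areg* and *Egfr*. Duct markers were abundant: the 8 genes *Epcam*, *Cdh1*, *Krt5*, *Krt14*, *Krt8*, *Krt18*, *Krt7* and *Trp63* summed to 14434 to 18210 CPM at day 5 and 11545 to 15990 CPM at day 7. Most of this came from the basal keratins *Krt5* (mean 5965 CPM at day 5, 4238 at day 7) and *Krt14* (7719 and 6543). The luminal keratin *Krt8* was at 109 and 69.2 CPM. *Trp63* is not a marker of duct alone, as the paper also uses it for stem/progenitor II and myoepithelial-like cells. Acinar markers were scarce, with a sum of 7.03 to 12.6 CPM at day 5 and 11.9 to 35.7 CPM at day 7 over 9 genes, and *Prol1*, *Dcpp1* and *Dcpp2* at 0 in every library. The transcript ends of these markers were not checked for matches to other genes. Other cells that can make these ligands left little trace. Of 10 macrophage markers, 8 were at 0 in every library, among them *Adgre1*, *Csf1r* and *Lyz2*, and the sum did not exceed 6.85 CPM. This sum was nearly all *Cd68*, at 1.65, 1.00 and 0.360 CPM at day 5 and 3.07, 5.90 and 6.85 CPM at day 7 for mice 1, 2 and 3. The endothelial markers (8 genes, *Cdh5* and *Tek* at 0) summed to at most 2.45 CPM and the fibroblast markers (8 genes, *Col1a2*, *Col3a1* and *Lum* at 0) to at most 2.94 CPM. These sums were higher at day 7 (macrophage 3.45 to 6.85, endothelial 1.74 to 2.45, fibroblast 1.92 to 2.94 CPM) than at day 5 (0.360 to 1.65, 0.412 to 1.08 and 0.360 to 0.502 CPM), and their part in the differences below was not tested. The 5 myoepithelial markers summed to 1.51 to 2.16 CPM at day 5, nearly all of it *Mylk*, and to 7.34 to 11.8 CPM at day 7, where *Acta2* was at 5.37, 8.33 and 0.979 CPM after 0 counts at day 5.

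The day 7 libraries differed more among themselves than the day 5 libraries. The biological coefficient of variation over all genes was 0.0897 within day 5 and 0.289 within day 7, and 9 of the 10 members had the larger SD at day 7. The exception was *Egf*, which had no reads at day 7. The day 7 library of mouse 3 stood apart from the other day 7 libraries in several members, and values without it are given where they matter.

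**Figure D1:**
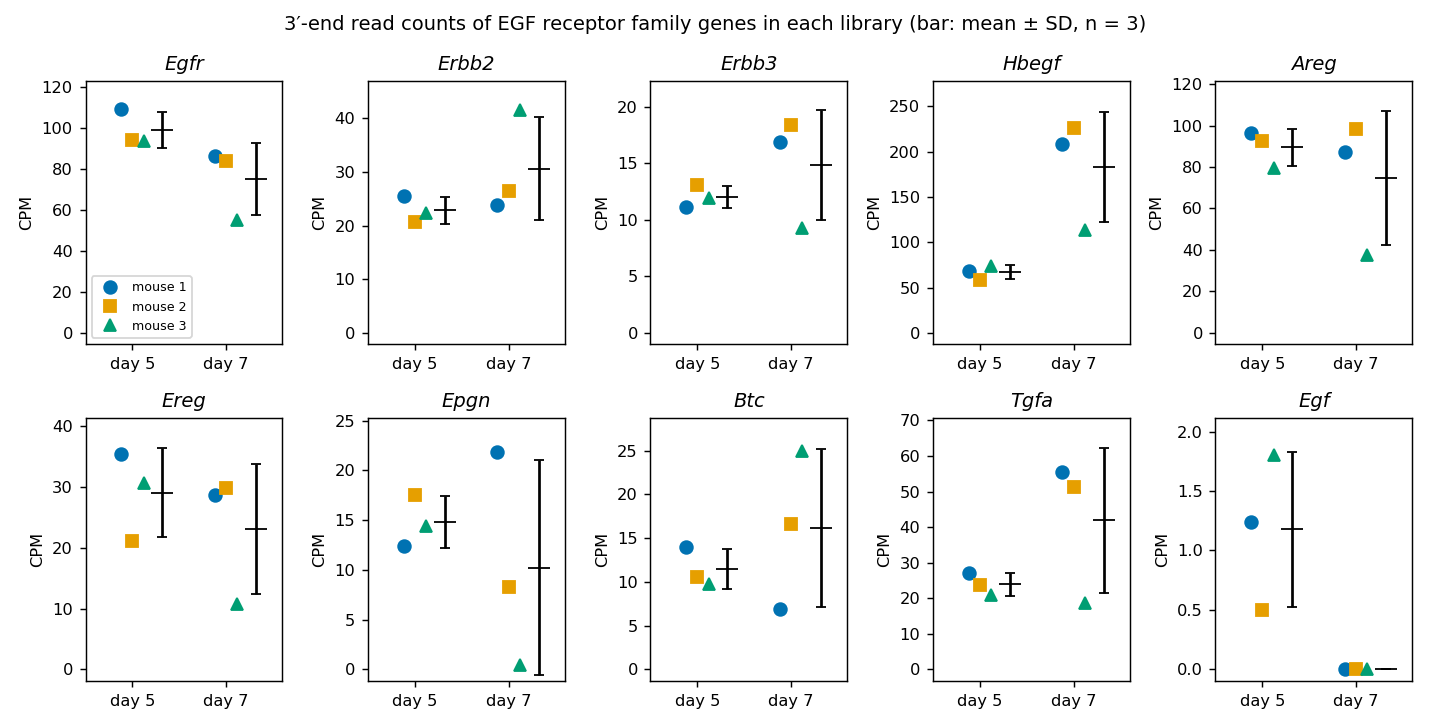
CPM of the 3 receptor and 7 ligand genes (vertical axis, linear, a separate scale per gene) at day 5 and day 7. Points are single libraries by mouse, and the bar gives the mean ± SD (n = 3). *Hbegf* lay at 58.7 to 74.2 CPM on day 5 and at 114 to 226 CPM on day 7, and mouse 3 (triangles) was the lowest day 7 library for *Egfr*, *Erbb3*, *Hbegf*, *Areg*, *Ereg*, *Epgn* and *Tgfa*.

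On day 5, *Egfr* (98.7 ± 8.83 CPM, SD, n = 3) and *Areg* (89.5 ± 8.81) were the most abundant members in 3′-end CPM, and their libraries overlapped. *Hbegf* followed at 67.1 ± 7.82 CPM, below every *Areg* library and above every *Ereg* library. *Ereg* (29.1 ± 7.32), *Tgfa* (23.9 ± 3.17) and *Erbb2* (22.8 ± 2.53) formed a middle group in which neighbours overlapped. *Epgn* (14.8 ± 2.62), *Erbb3* (12.0 ± 0.966) and *Btc* (11.4 ± 2.28) came next, again with neighbours that overlapped, and *Egf* stood last at 1.18 ± 0.652 CPM. On day 7, *Hbegf* led at 183 ± 60.5 CPM, above every *Egfr* library. Below it the day 7 order from *Egfr* to *Epgn* held no pair of neighbours whose 3 libraries were separate. Among all genes tested, the mean level of *Hbegf* over the 6 libraries was at the 91.3rd percentile, that of *Egfr* at the 87.0th, that of *Areg* at the 86.3rd and that of *Egf* at the 18.7th.

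Day 7 was then compared with day 5 in all genes. A gene counted as past the threshold with an edgeR adjusted p under 0.05 and a log2 fold change beyond 0.6 in either direction. Of the 10 members, 2 were past it: *Hbegf* was higher and *Egf* was lower at day 7. With the mouse as a block the count was 1, *Hbegf*. The background over all 15792 genes was 12.0% in either direction, made up of 7.22% that were higher and 4.82% that were lower at day 7. The members' count is thus near the background. The libraries of the days did not overlap in 3 of the 10 members (*Hbegf*, *Egf* and *Egfr*), against 30.9% of all genes tested. *Egf* passed the filter on low counts only through day 5, where it was high. Its call and its lack of overlap are therefore not independent of that filter. The median log2 fold change was 0.04 over the members and -0.01 over all genes. Among the cell type markers, *Krt8* was lower past the threshold, and the acinar marker *Pip*, *Acta2* and *Cd68* were higher. No endothelial or fibroblast marker was past it. *Pip* had 1, 24 and 21 counts in the day 7 libraries of mice 1, 2 and 3, and its days overlapped. *Acta2* had 0 counts at day 5 and passed the filter through day 7 alone, and *Cd68* had 7 counts at day 5 and 39 at day 7. With counts thinned to the smallest library, the duct, acinar and macrophage lists each held 0 calls. In bulk RNA, fewer cells of a type and less RNA per cell cannot be told apart, which holds for every difference given here.

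**Figure D2:**
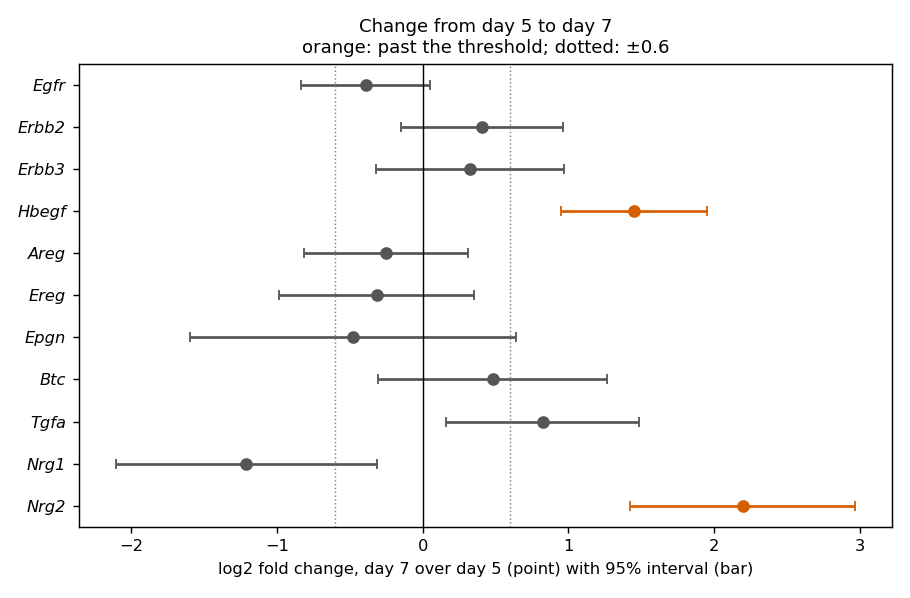
Log2 fold change of day 7 over day 5 (horizontal axis) with its 95% interval for 9 members and for the neuregulins *Nrg1* and *Nrg2*. *Egf* is left out since it had no reads at day 7. Orange marks genes past the threshold, which are *Hbegf* (1.45) and *Nrg2* (2.20), and the dotted lines are the minimum change of 0.6.

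Among the receptors, none was past the threshold. *Egfr* encodes the receptor of EGF, TGF-alpha and amphiregulin and, with ERBB4, of HB-EGF, betacellulin and epiregulin (ENSMUSG00000020122, GRCm39 chr11:16702198-16868158). It measured 109, 93.9 and 93.3 CPM at day 5 and 86.3, 83.7 and 54.8 CPM at day 7 for mice 1, 2 and 3. All 3 day 7 libraries were below all day 5 libraries. The log2 fold change was -0.39 ± 0.21 (SE), with a 95% interval from -0.84 to 0.05 (edgeR adjusted p = 0.253). It was -0.22 without the day 7 library of mouse 3.

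*Erbb2* encodes the receptor that pairs with the other ERBB proteins and has no ligand of its own. It measured 25.6, 20.6 and 22.3 CPM at day 5 and 23.8, 26.4 and 41.6 CPM at day 7. The days overlapped, and mouse 3 was high at day 7. The log2 fold change was 0.41 ± 0.26 (SE; 95% interval -0.15 to 0.96; edgeR adjusted p = 0.352), and it was 0.13 without that library. *Erbb3*, whose product binds neuregulins and passes the signal to PI3-kinase, measured 11.1, 13.1 and 11.9 CPM at day 5 and 16.9, 18.4 and 9.30 CPM at day 7. Here mouse 3 was the lowest of the 6 libraries while the other mice were above day 5, and the log2 fold change was 0.33 ± 0.31 (SE; 95% interval -0.32 to 0.97; edgeR adjusted p = 0.541). It was 0.56 without the day 7 library of mouse 3 and 0.14 without that of mouse 2. *Egfr* took 73.2% to 74.8% of the reads of the 3 receptor genes in each day 5 library. At day 7 it took 61.7% ± 8.61 (SD, n = 3), lowest in mouse 3 with 51.9%, where *Erbb2* took 39.4% against 18.7% and 20.5% in mice 1 and 2.

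*Hbegf* encodes heparin-binding EGF-like growth factor, a ligand of EGFR and ERBB4 that epithelial cells release during wound closure. It lies on the minus strand of chr18 (ENSMUSG00000024486, GRCm39 chr18:36637980-36649677). It measured 68.5, 58.7 and 74.2 CPM at day 5 and 209, 226 and 114 CPM at day 7 for mice 1, 2 and 3. Every day 7 library was above every day 5 library, and mouse 3 was the lowest of day 7. *Hbegf* rose 2.73-fold, a log2 fold change of 1.45 ± 0.24 (SE; 95% interval 0.95 to 1.95; edgeR adjusted p = 0.000562). It rose in 3 of 3 mice, by 1.61, 1.94 and 0.62 on the log2 scale. The call held in all 17 alternative fits, in which the log2 fold change lay between 1.27 and 1.69 and the adjusted p between 2.69e-09 and 0.0174.

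*Areg*, *Ereg*, *Epgn* and *Btc* are neighbours on chromosome 5. From *Epgn* to *Btc* they span 375561 bases with no other protein-coding gene between them in the annotation, and *Btc* lies on the opposite strand, 208828 bases beyond *Areg*. None of the 4 was past the threshold.

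*Areg*, which encodes amphiregulin, a ligand of EGFR alone, measured 96.5, 92.4 and 79.6 CPM at day 5 and 87.5, 98.6 and 37.7 CPM at day 7. Mice 1 and 2 stayed within 10 CPM of their day 5 level, and mouse 3 was low. The log2 fold change was -0.25 ± 0.27 (SE; 95% interval -0.81 to 0.31; edgeR adjusted p = 0.597), and it was 0.06 without the day 7 library of mouse 3. *Ereg*, which encodes epiregulin, a ligand of EGFR and ERBB4, measured 35.5, 21.1 and 30.6 CPM at day 5 and 28.8, 29.9 and 10.8 CPM at day 7. Mouse 3 was again the low library, and the log2 fold change was -0.32 ± 0.32 (SE; 95% interval -0.99 to 0.35; edgeR adjusted p = 0.578), or 0.00 without it.

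*Epgn*, which encodes epigen, an EGFR ligand of low affinity, had the largest day 7 spread relative to its mean among the 9 members with reads at day 7 (coefficient of variation 106%). It measured 12.4, 17.6 and 14.4 CPM at day 5 and 21.9, 8.33 and 0.490 CPM at day 7, the last of which is 1 count against 40 counts in the day 5 library of the same mouse. The log2 fold change of -0.48 ± 0.53 (SE; 95% interval -1.60 to 0.64; edgeR adjusted p = 0.615) rested on which library was used. It was 0.02 without the day 7 library of mouse 3, and -1.59 with an edgeR adjusted p of 0.0313 without that of mouse 1, against a range of 0.0313 to 0.968 over all alternatives.

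*Btc*, which encodes betacellulin, a ligand of EGFR and ERBB4, went the other way in mouse 3. It measured 14.0, 10.5 and 9.73 CPM at day 5 and 6.90, 16.7 and 25.0 CPM at day 7, so that mouse 3 was the highest of the 6 libraries and mouse 1 the lowest. The log2 fold change was 0.48 ± 0.37 (SE; 95% interval -0.31 to 1.26; edgeR adjusted p = 0.441), and it was 0.06 without the day 7 library of mouse 3.

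*Tgfa*, on chr6:86172041-86252728 (GRCm39), encodes transforming growth factor alpha, a ligand of EGFR made by many epithelia. It measured 27.2, 23.6 and 20.9 CPM at day 5 and 55.6, 51.4 and 18.6 CPM at day 7. In mice 1 and 2 it stood above every day 5 library, and in mouse 3 below every one. The log2 fold change was 0.82 ± 0.32 (SE; 95% interval 0.16 to 1.49), with an unadjusted p of 0.0179 from edgeR and an edgeR adjusted p of 0.100. Without the day 7 library of mouse 3 it was 1.16 with an edgeR adjusted p of 0.000505, against a range of 0.000505 to 0.498 over all alternatives.

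*Egf*, the gene of the factor that the medium supplies, had few reads (ENSMUSG00000028017, GRCm39 chr3:129470410-129549093). It had 3, 1 and 5 counts at day 5, or 1.24, 0.502 and 1.80 CPM, and 0 counts in each day 7 library. Against the 3 counts that 0 reads over the day 7 group allow, it was 3.14-fold lower. That value takes the day 5 counts as exact, so their own counting error and the spread between libraries are not covered. The 95% interval of the fit ran from -7.78 to -1.53 on the log2 scale. The call rests on 9 reads, all at day 5, and *Egf* passed the filter on low counts through these reads alone. Its edgeR adjusted p was 0.0499 and went to 0.160 with the mouse as a block, and to 0.0513 to 0.167 with any 1 library left out. The other products of the granular convoluted tubule had few reads as well. Of 17 such genes, *Egf* included, 9 were tested and only *Egf* was past the threshold, beside 12.0% of all genes. *Ren1*, *Klk1b4*, *Klk1b8*, *Klk1b22* and *Klk1b24* were at 0 in every library. The transcript ends of these genes were not checked for matches to other genes, and the handling of multiply aligned reads is not given. The sum over the 17 genes was 3.24 to 24.7 CPM at day 5 and 1.53 to 6.36 CPM at day 7. The top of the day 5 range was the library of mouse 1, where the kallikrein genes *Klk1b26* and *Klk1b11* had 20 and 13 counts. *Klk1*, a tissue kallikrein, had 10 counts in the day 5 library of mouse 1 and 1 count in all other libraries together.

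The make-up of the ligand transcripts was next set side by side, since 7 ligands share EGFR. Their summed level was 255, 224 and 231 CPM at day 5 and 410, 431 and 207 CPM at day 7 for mice 1, 2 and 3. The sum was thus higher at day 7 in mice 1 and 2 and lower in mouse 3. *Hbegf* made up 26.8%, 26.2% and 32.1% of this sum at day 5 and 51.0%, 52.5% and 55.2% at day 7. *Areg* made up 37.8%, 41.2% and 34.4% at day 5 and 21.3%, 22.9% and 18.2% at day 7. *Areg* was thus the leading ligand in all 3 libraries of day 5 and *Hbegf* in all 3 of day 7, mouse 3 included. The lead of *Areg* was small in the day 5 library of mouse 3, with 221 counts against 206 of *Hbegf*. *Ereg* went from 12.2% ± 2.43 to 6.39% ± 1.02 of the sum and *Tgfa* from 10.1% ± 0.900 to 11.5% ± 2.31 (SD, n = 3). *Egf* was at most 0.779%. These shares follow from the member values above and were not tested.

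**Figure D3:**
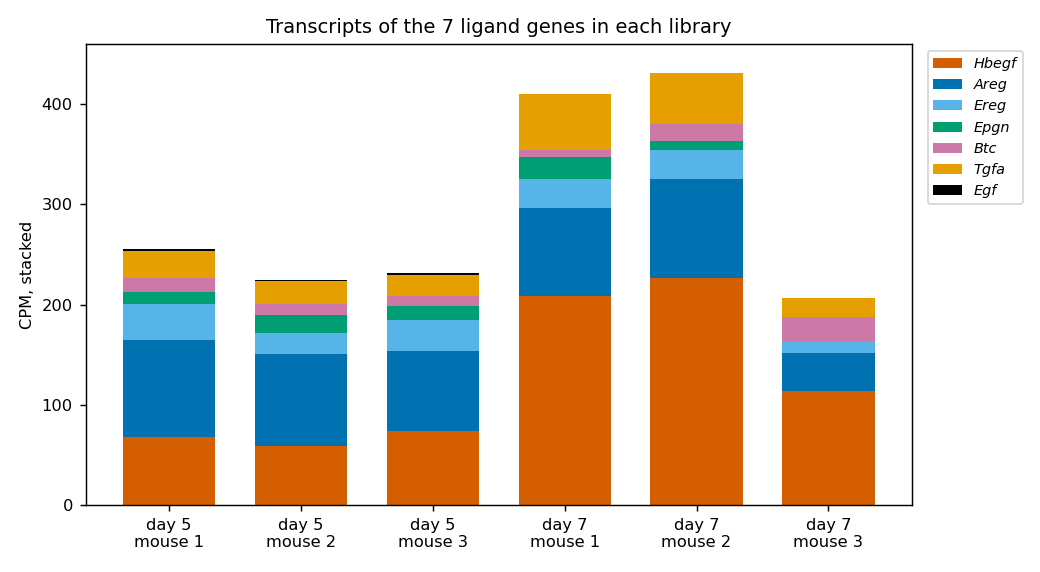
Stacked CPM (vertical axis, from 0) of the 7 ligand genes in each library. The *Hbegf* segment took 26.2% to 32.1% of the bar at day 5 and 51.0% to 55.2% at day 7, and the whole bar of mouse 3 at day 7 (207 CPM) was shorter than the 3 day 5 bars.

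The day 7 library of mouse 3 departed from the other day 7 libraries in many members, which was looked into after the values were seen. It was at or below 0.5 of the mean CPM of mice 1 and 2 in 4 of the 7 ligands: *Epgn* (0.0324), *Tgfa* (0.348), *Ereg* (0.367) and *Areg* (0.405). *Hbegf* (0.524), *Erbb3* (0.527) and *Egfr* (0.645) were also lower, and *Erbb2* (1.66) and *Btc* (2.12) higher. Among the 8159 named genes whose mean reached 10 CPM, 10.3% were at or below 0.5 in that library, 3.49% were at or above 2, and the median ratio was 1.02. The day 7 libraries of mice 1 and 2 were not set against the others in this way. Over all genes, 1901 were past the threshold with all libraries. Without the day 7 library of mouse 1, 2 or 3 these were 2472, 1045 and 2576, so mouse 3 was not alone in its effect. Libraries of a day carry no other label than the mouse, so the animal, its culture and its library preparation cannot be told apart.

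**Figure D4:**
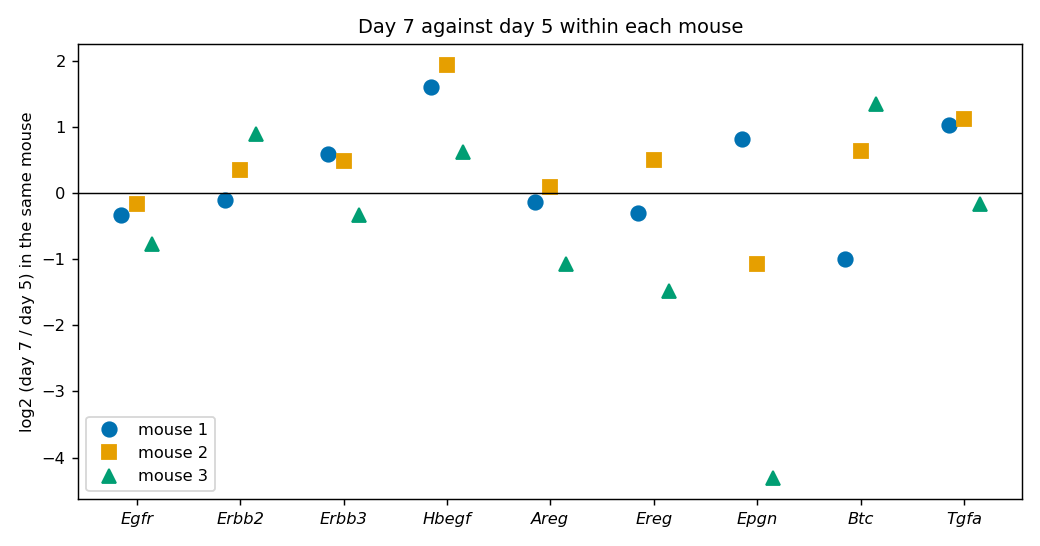
Log2 ratio of day 7 over day 5 within each mouse (vertical axis, with 0.5 counts added to each library) for 9 members. *Hbegf* was above 0 in all 3 mice and *Egfr* below 0 in all 3, while the other members had mice on both sides of 0.

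Genes that act with the members were taken by role, from lists written from general knowledge with earlier results of these data known. The remaining receptor and the neuregulins, which are ligands of ERBB3 and ERBB4, came first. *Erbb4*, *Nrg3* and *Nrg4* had 0 counts in all 6 libraries, which allows up to 1.04 to 1.51 CPM in a library. *Nrg2* measured 3.30, 4.52 and 2.88 CPM at day 5 and 18.8, 18.7 and 10.8 CPM at day 7. It rose by 2.20 ± 0.37 on the log2 scale (SE, edgeR adjusted p = 0.000630) and stayed past the threshold in all 17 alternatives. *Nrg1* measured 47.0, 36.2 and 38.6 CPM at day 5 and 37.2, 8.33 and 6.36 CPM at day 7, with -1.21 ± 0.43 on the log2 scale (SE; 95% interval -2.11 to -0.32; edgeR adjusted p = 0.0726). It was lower at day 7 in 3 of 3 mice, by little in mouse 1. With the mouse as a block, *Nrg1* was past the threshold (-1.51, edgeR adjusted p = 4.06e-06), as it was without the day 7 library of mouse 1 (-2.44), against a range of 4.06e-06 to 0.321 over its alternatives.

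For the shedding machinery, 6 genes were counted, which encode the proteases that free the ligands, their partners and an inhibitor. Of these, 0 were past the threshold by edgeR and 0 by DESeq2, beside 12.0% of all genes by edgeR. An unadjusted p under 0.05 in edgeR was found in 2 of the 6, beside 4079 of the 15792 genes tested. The median log2 fold change of the 6 was -0.12. *Adam17*, the main sheddase of most EGFR ligands, had a log2 fold change of -0.15 (174 ± 8.29 to 156 ± 56.8 CPM), and *Adam10* of 0.17 (141 ± 4.50 to 158 ± 15.1 CPM). The smallest p-values were those of *Rhbdf1*, an inactive rhomboid that escorts ADAM17 to the surface (-0.65, edgeR adjusted p = 0.0918), *Timp3*, an inhibitor of ADAM17 (0.42, edgeR adjusted p = 0.153), and *Frmd8*, which stabilises that complex (-0.37, edgeR adjusted p = 0.315). *Rhbdf1* was past the threshold without the day 7 library of mouse 3 (edgeR adjusted p = 0.0148).

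Among 15 inhibitors and turnover factors of the receptors, 2 were higher at day 7 and 0 lower, with a median log2 fold change of 0.14 over the list. The count is near the background of 12.0% of all genes. Both genes encode proteins known to act on EGFR. *Errfi1*, also known as MIG6, encodes an inhibitor that binds the EGFR kinase. It measured 8.66, 10.0 and 10.1 CPM at day 5 and 33.0, 76.7 and 29.4 CPM at day 7, and it rose by 2.28 ± 0.35 on the log2 scale (SE, edgeR adjusted p = 0.000271). *Cblc*, which encodes an epithelial ubiquitin ligase of the CBL family, went from 7.67 ± 1.49 to 20.9 ± 5.37 CPM (SD, n = 3; log2 fold change 1.42, edgeR adjusted p = 0.00513). Both stayed past the threshold in all 17 alternatives. *Cbl* and *Cblb*, the related ligases, had log2 fold changes of -0.21 and 0.33 and were not past it, and neither was the receptor inhibitor *Lrig1* (-0.10) nor *Lrig2* (0.61, edgeR adjusted p = 0.132).

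Of 15 adaptor, RAS and PI3-kinase genes, 2 were higher and 0 lower, with a median of 0.28. This count too is near the 12.0% of all genes. *Pik3r1*, the regulatory subunit of PI3-kinase, measured 109, 101 and 108 CPM at day 5 and 193, 286 and 413 CPM at day 7 and rose by 1.48 ± 0.24 (SE, edgeR adjusted p = 0.000425). Here mouse 3 was the highest library. *Pik3cb*, a catalytic subunit, rose by 1.28 (edgeR adjusted p = 0.00464). Its call was lost without the day 5 library of mouse 2 (edgeR adjusted p = 0.0589) and with glmTreat (adjusted p = 0.0623). *Sos2*, an exchange factor for RAS, missed the threshold, at 0.64 on the log2 scale (edgeR adjusted p = 0.0580). It was past it in 3 of 17 alternatives. These were the filterByExpr filter (edgeR adjusted p = 0.0413) and edgeR without the day 7 library of mouse 1 (adjusted p = 0.0277) or of mouse 3 (adjusted p = 0.0216).

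Genes that ERK signalling induces, most of them feedback inhibitors, moved in both directions. Of 14, 4 were higher and 2 lower, with a median of 0.45, beside 7.22% higher and 4.82% lower among all genes. *Dusp5*, a nuclear ERK phosphatase, measured 7.01, 6.53 and 3.96 CPM at day 5 and 41.0, 89.9 and 34.3 CPM at day 7 and rose by 3.26 ± 0.38 (SE, edgeR adjusted p = 1.55e-05), in all 17 alternatives. *Dusp6*, the cytoplasmic ERK phosphatase, measured 234, 142 and 155 CPM at day 5 and 107, 39.6 and 18.1 CPM at day 7, and fell by 1.68 ± 0.39 on the log2 scale (SE, edgeR adjusted p = 0.00832, n = 3 per day). The *Dusp6* call was lost in 4 of the 17 alternatives. These were DESeq2 (adjusted p = 0.118), robust fitting in edgeR (adjusted p = 0.214), and edgeR without the day 5 library of mouse 1 (adjusted p = 0.0761) or the day 7 library of mouse 2 (adjusted p = 0.0876). *Ier3*, an early response gene, was also higher (0.92, edgeR adjusted p = 0.00638), as were the ERK phosphatase *Dusp4* (1.08, edgeR adjusted p = 0.0387) and *Phlda1* (0.91, edgeR adjusted p = 0.0426). *Fosl1*, an AP-1 subunit, was lower (-1.22, edgeR adjusted p = 0.0237). The calls of *Ier3*, *Dusp4*, *Phlda1* and *Fosl1* were lost in 3, 8, 11 and 6 of the 17 alternatives. The list held 2 calls without any 1 of the day 5 libraries or the day 7 library of mouse 2, and 8 without the day 7 library of mouse 3.

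**Figure D5:**
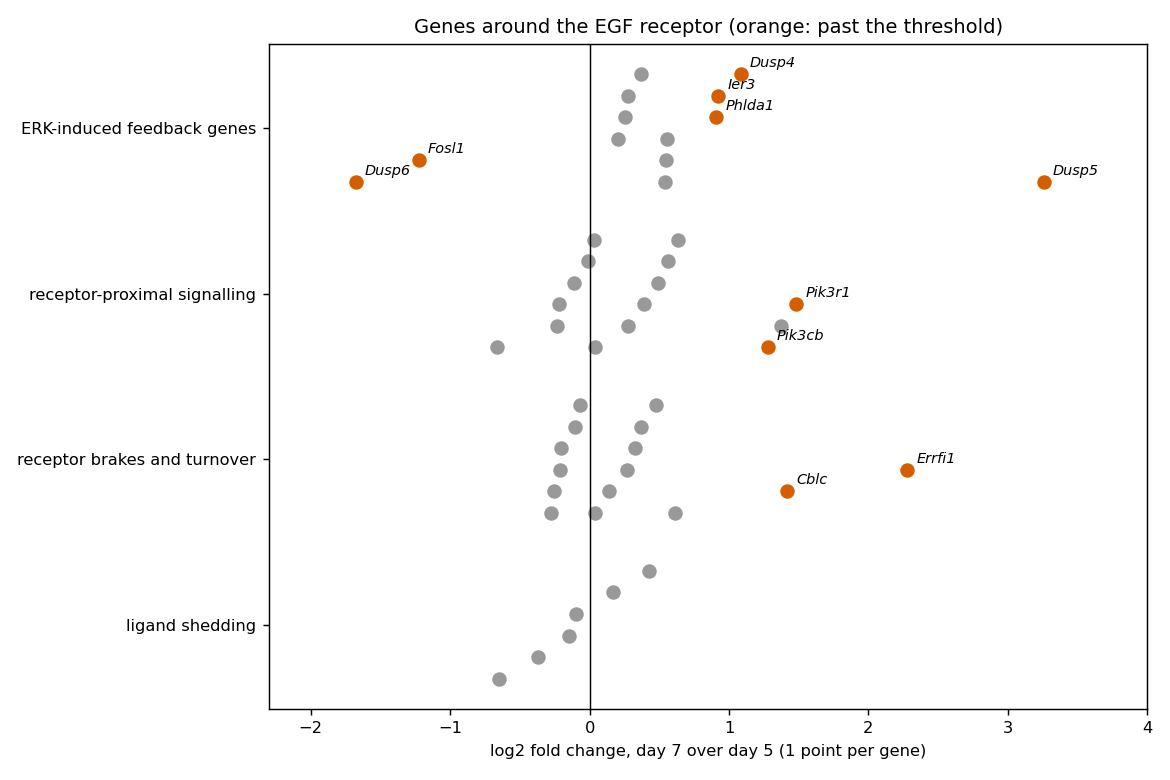
Log2 fold change of day 7 over day 5 (horizontal axis) for the genes of 4 lists, 1 point per gene with reads at both days. Orange points, with names, are past the threshold: 0 of 6 for ligand shedding, 2 of 15 for receptor brakes and turnover, 2 of 15 for receptor-proximal signalling and 6 of 14 for ERK-induced feedback genes. The 14 include *Spry4*, which is not drawn since it had 5 counts at day 5 and 0 at day 7.

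Promoter sequences, 250 bases before to 50 after the start, were held by the RefSeq table (build GRCm38.p6) for 7 of the 10 members, in 8 promoters. The promoters of *Hbegf*, *Ereg* and *Erbb3* were not in it and were not searched. On both strands, the AP-1 letters TGANTCA were in 0 of the 8, against 7.81% of 32851 promoters, and the cAMP response element TGACGTCA was in that of *Areg*, against 1.79%. GGAATG, bound by TEAD factors, was in that of *Erbb2* (14.7% of all promoters) and ACGTG, the core of the hypoxia response element, in 1 promoter of *Egf* (19.6%). A match describes letters in this window and does not show that a factor binds there. For the counts themselves, the last 500 bases of the canonical transcript of each member matched no transcript of another gene at 95% identity. Exons of *Erbb2*, *Ereg*, *Hbegf*, *Tgfa* and *Egf* overlap a gene on the opposite strand, and without a stated strand setting reads of such partners cannot be told apart.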

How the data were processed

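RNA from 6 organoid libraries, 3 per day, was made into libraries with a Lexogen QuantSeq 3′ kit. The authors deposited whole-number read counts per Ensembl gene ID, not normalised, from reads aligned to GRCm39. The aligner, annotation release, strand setting and handling of multiply aligned reads are not given in the sources used here. Closing entries that name no gene (13.7% to 14.4% of reads at day 5, 9.12% to 9.74% at day 7) entered neither library sizes nor tests. Names came from GENCODE vM39 by exact ID (43465 of 47643, 91.2%). A gene needed 1 count or more in 2 libraries or more, which 15792 of 18687 detected genes had. Day 7 was set against day 5 with edgeR 4.0.16 (R 4.3.3), using TMM scaling, glmQLFit and the two-sided glmQLFTest, with day as the single term, and Benjamini-Hochberg adjustment ran over every gene that was tested. The threshold (adjusted p under 0.05, log2 fold change beyond 0.6) follows the methods of the study, which name no mouse term. The fitting code was run on simulated counts with the same spread at both days and with changes set only in well-counted genes. That run does not check calls on few reads or under the larger spread of day 7. SE were taken as the log2 fold change divided by the square root of F.

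Same-numbered libraries come from the same mouse, per the titles; their deviations from the day mean correlated at 0.14, -0.10 and 0.16 over 8172 genes of at least 10 CPM. Libraries of the same day differed by more than sampling noise (chi-square divided by its degrees of freedom, 1.99 or more), and each counted as 1 replicate. Alternatives were DESeq2 1.42.0, other scalings and filters, the mouse as a block, robust fitting, glmTreat, no minimum fold change, thinned counts and each library left out. The text names all 10 members, up to 3 genes with the smallest p in each list other than the cell type markers and, for members past the threshold, the 3 genes with the closest pattern. Genes named besides these were chosen for their role or after their values were seen. The members and gene lists were chosen with earlier results of these data known. Matches of transcript ends were searched with blastn 2.17.0. Counts of 0 were read as up to 3 counts, and such floors cover only the counting error of the 0 itself.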

Additional observations from a re-analysis of the deposited data

How the results depend on the processing

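The members past the threshold numbered 2 with all libraries. They numbered 1, *Hbegf*, with DESeq2, filterByExpr, the replicate block by mouse, glmTreat and thinned counts, and 1 to 2 when a library was left out. *Egf* was not tested after filterByExpr and had no adjusted p in DESeq2. Without a filter they numbered 3, with *Tgfa* (edgeR adjusted p = 0.0170). Over all genes, 1901 were past the threshold, 622 with glmTreat, and 797 to 2576 when a library was left out. Scaling by library totals only gave 950 higher and 1008 lower, against 1140 and 761, and moved the median of all genes from -0.01 to -0.10. Of 168 values of the members under alternatives, 153 kept direction and call, 9 lost the call (all *Egf*), 3 gained it (*Tgfa* in 2, *Epgn* in 1) and 3 turned direction. The latter were *Areg*, *Ereg* and *Epgn* without the day 7 library of mouse 3; over the fits that leave out a library they ranged from -0.504 to 0.0583, from -0.537 to 0.000177 and from -1.59 to 0.0239 on the log2 scale. The block by mouse changed the call of *Egf* and *Nrg1* and of no other gene named in the report with its alternatives. Depth limits *Egf*, with 9 reads in all.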

Other observations

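The medium also supplies FGF2 and insulin, and the receptors for these and for IGF1 were looked at beside the EGF receptor. Of 6 genes, 5 were tested, and *Fgfr4* had no reads. At day 7, 1 was higher and 0 lower, beside 7.22% higher and 4.82% lower among all genes. *Insr*, the insulin receptor, measured 12.8, 9.54 and 10.4 CPM at day 5 and 17.3, 23.6 and 23.0 CPM at day 7, which is 0.95 ± 0.28 on the log2 scale (SE; edgeR adjusted p = 0.0321). The call was lost in 8 of 17 alternatives, among them each fit without a day 5 library. *Igf1r* went from 110 ± 5.02 to 167 ± 64.4 CPM (SD, n = 3; log2 fold change 0.61, edgeR adjusted p = 0.0972). It was 0.25 without the day 7 library of mouse 1, and it was past the threshold without that of mouse 3 (0.79, edgeR adjusted p = 0.00832) and without a filter (edgeR adjusted p = 0.0354). *Fgfr1* (92.5 ± 12.3 to 102 ± 18.2 CPM) and *Fgfr2* (20.3 ± 4.04 to 21.3 ± 9.53 CPM) had log2 fold changes of 0.15 and 0.10, and *Fgfr3* had 35 counts at day 7 and 15 at day 5 (1.07, edgeR adjusted p = 0.287).

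The genes whose log2 CPM followed that of *Hbegf* most closely over the 6 libraries, among the 8159 named genes whose mean reached 10 CPM, were *Arc* (Pearson r = 0.999), an immediate early gene, *Pmaip1* (0.999), which encodes the BH3-only protein NOXA, and *Elf3* (0.997), an epithelial ETS factor. *Arc* went from 3.52 ± 0.922 to 43.0 ± 26.7 CPM, *Pmaip1* from 33.4 ± 3.15 to 73.3 ± 21.3 CPM and *Elf3* from 18.5 ± 3.95 to 67.5 ± 27.3 CPM (SD, n = 3). These are the highest of many correlations over 6 points that share their libraries and the step between the days, and they are given as a description. For *Egf* the same rule gave *Fhip1b*, *Traf7* and *Gm49342*, on 9 reads of *Egf* in all.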
